A study of Mus musculus with 6 samples.

Results

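Beta2 integrins are the adhesion receptors of leukocytes, and the 10 genes described here encode their chains and the proteins that switch them on. The members were the rows of the count table whose symbol in the GENCODE M21 annotation was Itgb2, Itgam, Itgax, Itgal, Itgad, Fermt3, Tln1, Skap2, Vav1 or Apbb1ip, 10 of 55450 rows, and all 10 were found. Kidney mRNA was counted in 3 mice of the day-0 group and 3 mice of the day-21 group. All mice were male C57BL/6J, bought at 7 weeks of age and kept for 1 week before use. The day-21 group received adenine at 0.16 g/kg with potassium oxonate at 2.4 g/kg by daily gavage, a treatment that raises uric acid and injures the kidney, and the day-0 group is labelled as a control with 20% PEG. No transgene or deletion is named for either group, and whole kidney tissue holds epithelium, vessels and leukocytes together.

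A beta2 integrin is a pair of the shared beta chain CD18 with 1 of several alpha chains: CD11a (LFA-1), CD11b (Mac-1, also complement receptor 3), CD11c or CD11d. On a resting leukocyte the pair is bent and binds poorly. In inside-out activation, signals from chemokine, antigen or Fc receptors load the small GTPase Rap1, its effector RIAM brings talin to the tail of the beta chain, and kindlin-3 binds the same tail, which straightens the receptor so that it can hold ICAMs, fibrinogen or fragments of complement C3.

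The beta chain gene is Itgb2 (ENSMUSG00000000290.13, chr10:77530252-77565708, plus strand of GRCm38). The alpha chain genes lie on the plus strand of chromosome 7: Itgal, for CD11a (ENSMUSG00000030830.18, chr7:127296260-127335138), Itgam, for CD11b (ENSMUSG00000030786.18, chr7:128062640-128118491), Itgax, for CD11c (ENSMUSG00000030789.9, chr7:128129547-128150657), and Itgad, for CD11d (ENSMUSG00000070369.13, chr7:128154376-128223816). The activators are spread over other chromosomes: Fermt3, for kindlin-3 (ENSMUSG00000024965.9, chr19:6998958-7019469, minus strand), Tln1, for talin-1 (ENSMUSG00000028465.16, chr4:43531519-43562691, minus strand), Skap2, for an adaptor of the Src kinase pathway (ENSMUSG00000059182.7, chr6:51857422-52012549, minus strand), Vav1, for a guanine nucleotide exchange factor of blood cells (ENSMUSG00000034116.17, chr17:57279100-57328031, plus strand), and Apbb1ip, for RIAM (ENSMUSG00000026786.14, chr2:22774094-22875653, plus strand).

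The promoters of 7 of the 10 members were in the RefSeq table, those of Itgam, Itgax, Fermt3, Tln1, Skap2, Vav1 and Apbb1ip. They were searched on both strands for GAGGAA, the core of the motif of PU.1, a transcription factor of myeloid and B cells, in the 250 bases before the start. It was present in 3 of the 7, against 25.9% of the 27025 genes in the table, a gene counting if any of its promoters held it. By promoter the share was 23.3% of 32851. The longer form GAGGAAGT was present in 1 of the 7, against 2.79% of all genes and 2.44% of all promoters. Every match of the longer form is also a match of the core. The 4 windows below, in GRCm38.p6 and written 5′ to 3′ on the gene's strand, are the 3 with a match and that of Itgax, the alpha chain gene next to Itgam, which has none. Capitals mark GAGGAA or, where the match is on the other strand, TTCCTC.
Itgam (chr7:128062390-128062639, plus strand): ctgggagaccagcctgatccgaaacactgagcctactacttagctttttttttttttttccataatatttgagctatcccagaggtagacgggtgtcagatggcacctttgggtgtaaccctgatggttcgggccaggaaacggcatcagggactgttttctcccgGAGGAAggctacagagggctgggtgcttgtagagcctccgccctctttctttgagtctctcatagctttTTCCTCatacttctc
Itgax (chr7:128129300-128129549, plus strand): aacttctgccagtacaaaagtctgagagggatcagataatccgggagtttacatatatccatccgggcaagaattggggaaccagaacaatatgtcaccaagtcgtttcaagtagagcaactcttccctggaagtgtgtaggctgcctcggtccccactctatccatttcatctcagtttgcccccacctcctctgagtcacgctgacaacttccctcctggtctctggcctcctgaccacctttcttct
Vav1 (chr17:57278850-57279099, plus strand): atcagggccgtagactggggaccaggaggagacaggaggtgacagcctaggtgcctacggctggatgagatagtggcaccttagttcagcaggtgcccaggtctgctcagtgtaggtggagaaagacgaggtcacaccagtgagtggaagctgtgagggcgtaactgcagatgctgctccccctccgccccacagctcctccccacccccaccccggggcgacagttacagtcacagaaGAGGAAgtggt
Tln1 (chr4:43562584-43562833, minus strand): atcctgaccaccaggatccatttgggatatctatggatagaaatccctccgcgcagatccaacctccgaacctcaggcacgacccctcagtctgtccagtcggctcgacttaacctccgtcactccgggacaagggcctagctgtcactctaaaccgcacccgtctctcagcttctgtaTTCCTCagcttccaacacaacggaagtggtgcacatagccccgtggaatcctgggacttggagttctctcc
In Itgam a match lies 78 bases before the start on the gene's strand and another 9 bases before it on the other strand. In Vav1 the match, the longer form, lies 5 bases before the start, and in Tln1 it lies 65 bases before the start on the other strand. Starts are those of the RefSeq table. The starts of Tln1, Itgax and Apbb1ip lie inside the gene positions given above, and so does the match of Tln1. Most of the Apbb1ip window lies inside its gene position. A match describes letters in a window and says nothing of binding.

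Total counts were 10963849 to 14256556 in the day-0 group and 12662200 to 14333311 in the day-21 group, so that 3 counts, the floor used here, correspond to 0.179 to 0.309 CPM (counts scaled to a common total by TMM-adjusted library size). This floor covers counting error only. Of 16592 genes with enough counts to test, 19.6% rose and 15.5% fell on day 21 (edgeR's quasi-likelihood test, Benjamini-Hochberg adjusted p under 0.05 and a fold over 1.5), and the median log2 fold change was 0.03. Of 8 kidney epithelium markers 0 were higher and 6 lower, with a summed level of 14768 to 16836 CPM on day 0 and 6436 to 6900 CPM on day 21. Counts from mitochondrially encoded genes took 9.39% to 9.86% of a day-0 library and 3.82% to 4.42% of a day-21 library. Ptprc, which encodes CD45 on all leukocytes, rose from 9.82 ± 1.45 to 56.1 ± 2.44 CPM (SD, n = 3 per group), a log2 fold change of 2.52 (SE 0.14). More cells of a type and more RNA per cell, or fewer and less, cannot be told apart in bulk tissue.

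Of the 9 members that could be tested, 7 rose on day 21 and 0 fell, where 19.6% of all genes rose. The median log2 fold change of the 9 was 2.18. In 8 of the 9 every day-21 mouse lay above every day-0 mouse, as in 30.7% of all genes tested. The members that rose were the beta chain, 3 alpha chains, kindlin-3, Vav1 and RIAM. Talin-1 and Skap2 were not called, and CD11d was too low to test.

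**Figure D1:**
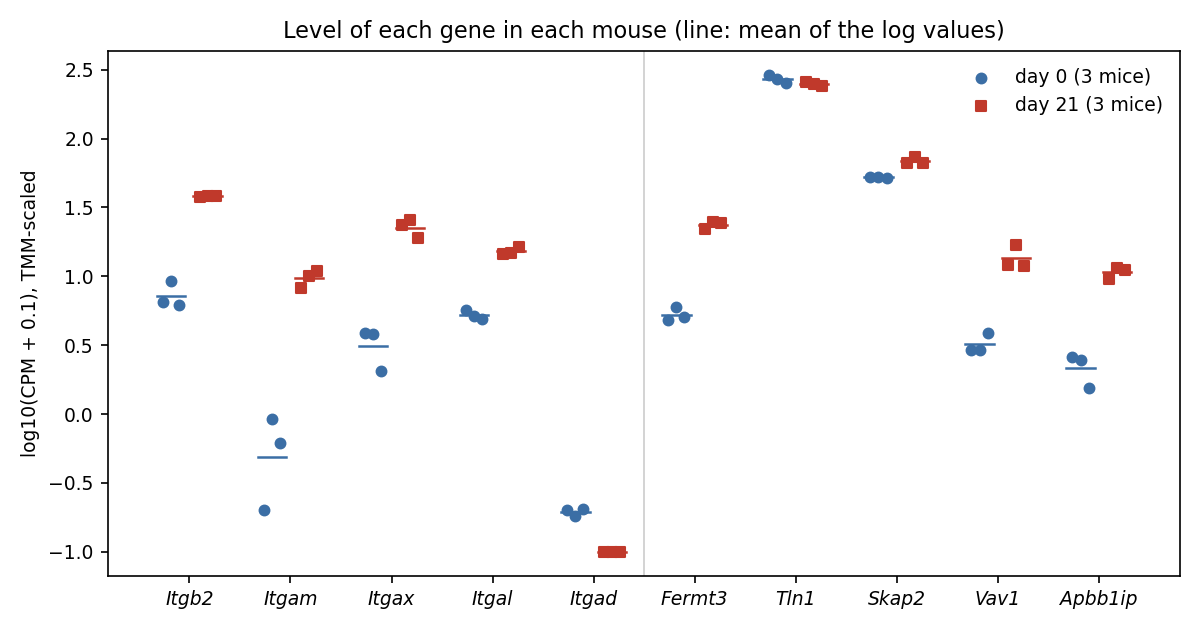
Level of each member in each mouse, as log10 of CPM plus 0.1, with circles for the 3 day-0 mice, squares for the 3 day-21 mice and a line at the mean of the log values. The day-21 squares lie above all day-0 circles in 8 members. Tln1 overlaps between the groups, and Itgad is at the bottom of the axis in the day-21 mice with a count of 0.

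Itgb2 stood at 6.41, 9.22 and 6.07 CPM on day 0 and at 37.4, 38.3 and 38.4 CPM on day 21. The groups were far apart, and the day-21 mice lay close together (38.0 ± 0.548 CPM, SD, n = 3). The rise was 5.22-fold, a log2 fold change of 2.38 (SE 0.17, 95% confidence interval 2.00 to 2.76, edgeR adjusted p = 4.2e-06). Every beta2 integrin contains the product of this gene.

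Itgam showed the steepest change of the members. Its counts on day 0 were 1, 10 and 5, which is 0.10, 0.823 and 0.515 CPM, and on day 21 they were 116, 166 and 177, which is 8.19, 9.89 and 10.8 CPM. The first day-0 mouse was under the floor of 3 counts, the other 2 were just above it, and all day-21 mice were well above. The log2 fold change was 4.25 (SE 0.42, interval 3.32 to 5.18, edgeR adjusted p = 2.5e-05), rank 132 among the 16592 genes by log2 fold change, and it lay between 3.78 and 4.94 under each of 15 alternatives, which included leaving out any mouse. With so few day-0 counts, the fold of 19.1 is less certain than its direction. CD11b marks macrophages, monocytes and neutrophils, and it takes up particles coated with complement C3.

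Itgax was at 3.81, 3.70 and 1.95 CPM on day 0 and at 23.4, 25.7 and 18.8 CPM on day 21. Its log2 fold change was 2.83 (SE 0.25, interval 2.28 to 3.38, edgeR adjusted p = 1.3e-05). CD11c is found on dendritic cells and on many macrophages of the kidney.

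Itgal rose less than the other alpha chains that were called. Its levels were 5.61, 5.02 and 4.84 CPM on day 0 and 14.4, 14.7 and 16.2 CPM on day 21, a log2 fold change of 1.55 (SE 0.17, interval 1.17 to 1.93, edgeR adjusted p = 5.5e-05). CD11a is carried by nearly all leukocytes and is the main beta2 partner of lymphocytes. The day-0 mice and the day-21 mice of both Itgax and Itgal were fully apart.

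Itgad had 1 count in each day-0 mouse and 0 counts in each day-21 mouse. All mice were at or under the floor, so no fold is given and CD11d mRNA was not detectable at this depth in either group.

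Each alpha chain was read against the beta chain within the same mouse, and Itgam and Itgal differed from it in opposite directions. The log2 ratio of the Itgam count to the Itgb2 count was -5.43, -3.42 and -3.44 on day 0 and -2.19, -1.95 and -1.82 on day 21, a difference of 2.11. The groups did not overlap, and a two-sided exact permutation test gave p = 0.1, the smallest that 3 mice against 3 allow (0.15 adjusted over the 3 alpha chains). Without the first day-0 mouse, the 1 with a single Itgam count, the difference was 1.44. When the libraries were scaled to Itgb2 and refitted with edgeR across all genes, Itgam was higher by 1.93 on the log2 scale (SE 0.50, interval 0.91 to 2.94, adjusted p = 6.3e-04), and by 1.53 without that mouse (adjusted p = 0.0053). On this scale 1.67% of all genes were higher and 91.1% lower at an adjusted p under 0.05. With so many genes under that threshold the adjustment altered little, and the unadjusted edgeR p of Itgam with all mice was 5.3e-04. This refit was added after seeing the data.

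For Itgal the ratio to Itgb2 went the other way. It was -0.19, -0.87 and -0.32 on the log2 scale on day 0 and -1.38, -1.38 and -1.24 on day 21, with no overlap (difference -0.87, exact permutation p = 0.1, 0.15 adjusted). The refit gave -0.88 (interval -1.51 to -0.25, edgeR adjusted p = 0.0086, unadjusted 0.0077), where 91.1% of all genes were lower. CD11a mRNA thus rose by less than CD18 mRNA, although it rose. A lower ratio to Itgb2 is not particular to Itgal. For Itgax the groups overlapped in this ratio (difference 0.46, exact permutation p = 0.2), and the refit gave 0.44 with an interval of -0.22 to 1.10, which spans no change and a change as large as 1.10. Between alpha chains, the log2 ratio of Itgam to Itgal rose by 2.98, that of Itgax to Itgal by 1.33 and that of Itgam to Itgax by 1.65. Each was without overlap and at the smallest exact permutation p of 0.1. The size of both Itgam differences leans on the first day-0 mouse. Itgam to Itgax was at -4.68 in that mouse, at -2.12 and -1.83 in the other day-0 mice, and at -1.51, -1.38 and -0.79 on day 21. Itgam to Itgal was at -5.24 in that mouse and at -2.55 and -3.11 in the other day-0 mice.

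Levels of different genes were compared per length, as RPKM (CPM per kilobase of annotated exon). The order on day 0 was Itgb2 at 2.37, Itgal at 0.785, Itgax at 0.657 and Itgam at 0.0954 RPKM. On day 21 it was Itgb2 at 12.5, Itgax at 4.72, Itgal at 2.30 and Itgam at 1.92 RPKM. Of the summed level of the 4 alpha chains, Itgal made up 51.0% ± 6.78 on day 0 and 25.8% ± 2.81 on day 21 (SD, n = 3). The share of Itgax was 41.3% ± 8.05 and 52.6% ± 5.90, and that of Itgam 6.26% ± 4.46 and 21.5% ± 3.36. By all annotated exon bases, the commonest alpha chain mRNA on day 0 was that of CD11a in the mean of the mice. On day 21 it was that of CD11c in each mouse by this length. By the shorter Itgam length given below, it was that of CD11b in each day-21 mouse. On day 0 the neighbours Itgal and Itgax did not differ beyond their spread.

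The place of Itgam in that order rests on its length. Of its 5024 exon bases, 3450 (68.7%) are also exon bases of Gm49368, a gene annotated on the same strand, which had 0 counts in all 6 mice. The program that counted the reads is not given in the sources used here. Where it leaves out reads that fall in 2 genes, the only Itgam reads counted are those from the other 1574 bases, most of which lie at the end of the gene. Per unshared base, Itgam was at 0.304 RPKM on day 0 and 6.12 RPKM on day 21. Its share of the alpha chains was then 16.9% on day 0 and 46.5% on day 21, above Itgax at 36.0% and Itgal at 17.5% on day 21. The sum of the alpha chains per Itgb2 was 0.670 ± 0.121 on day 0 and 0.717 ± 0.0426 on day 21 with all exon bases, and 0.755 ± 0.0688 and 1.05 ± 0.0524 with unshared bases. The rise of Itgam between the groups is read from the same bases in all mice and does not use a length. Among the other chains, 8.02% of the 50-base words of Itgax occur in Itgad, and Itgam and Itgal share none with another chain.

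**Figure D2:**
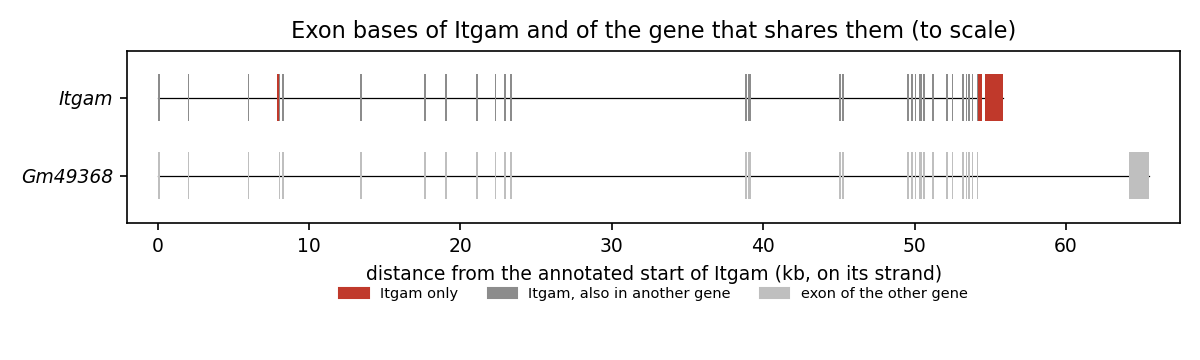
Exons of Itgam and of Gm49368 along the distance from the annotated start of Itgam in kb, with exon bases of Itgam alone in red, those shared in dark grey and exons of Gm49368 in light grey. Red takes up 1574 of 5024 exon bases and lies mostly at the end of Itgam.

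**Figure D3:**
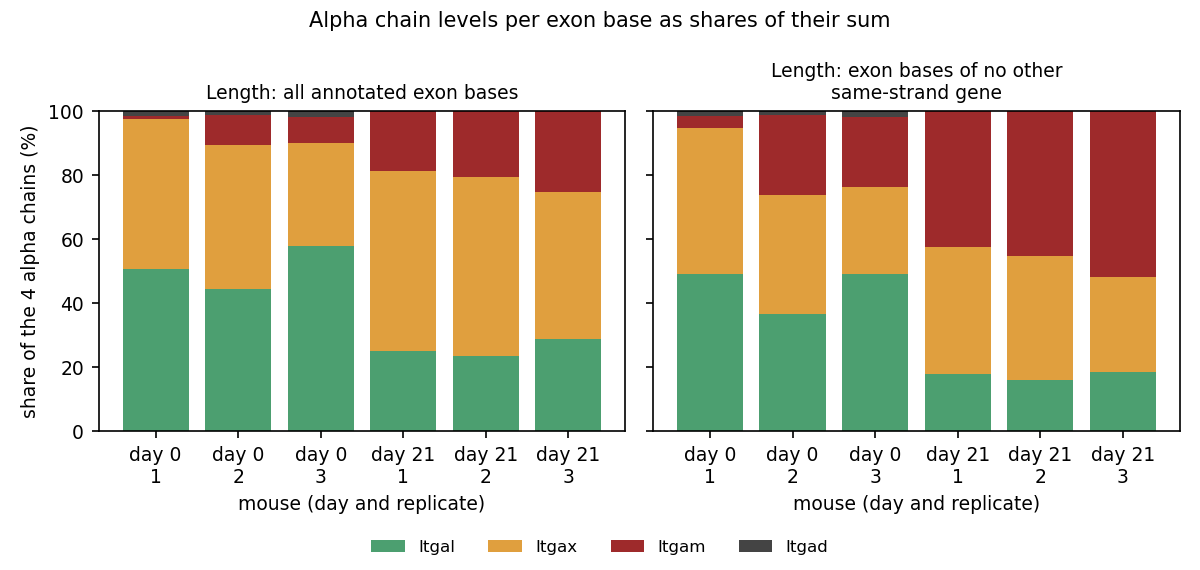
Share in percent of each alpha chain in the summed level per exon base of the 4 alpha chains, as a stacked bar for each mouse, computed with all exon bases on the left and with unshared exon bases on the right. The Itgam share is larger in each day-21 mouse than in each day-0 mouse in both panels, and the Itgal share is smaller.

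Fermt3, the kindlin of blood cells, stood at 4.71, 5.93 and 4.94 CPM on day 0 and at 21.9, 24.5 and 24.3 CPM on day 21. The groups were fully apart, with a log2 fold change of 2.18 (SE 0.16, interval 1.81 to 2.54, edgeR adjusted p = 5.6e-06). The kindlins of other tissues were far more abundant per length. Fermt2, for the broadly expressed kindlin-2, was at 22.3 RPKM on day 0 and 20.1 RPKM on day 21 and did not pass the test (log2 fold change -0.15, edgeR adjusted p = 0.375). Fermt1, for the epithelial kindlin-1, rose from 7.20 to 11.2 RPKM (log2 fold change 0.64, edgeR adjusted p = 0.0051), while Fermt3 went from 0.897 to 4.07 RPKM. Within each mouse the log2 ratio of Fermt3 to Fermt2 was higher on day 21 by 2.32 and that of Fermt3 to Fermt1 by 1.53, without overlap.

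Tln1 was the most abundant member and the only one of the 9 whose groups overlapped. It was at 292, 269 and 252 CPM on day 0 and at 259, 250 and 241 CPM on day 21, a log2 fold change of -0.12 (SE 0.11, interval -0.35 to 0.12, edgeR adjusted p = 0.397). Its sign was positive when libraries were scaled by total counts alone, at 0.27. Talin-1 is used by nearly every adherent cell. Tln2, the other talin gene, fell from 171 ± 5.55 to 73.1 ± 4.46 CPM (log2 fold change -1.23, edgeR adjusted p = 1.0e-05), and the log2 ratio of Tln1 to Tln2 was 1.12 higher on day 21, without overlap.

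Skap2 was at 52.7, 52.9 and 51.6 CPM on day 0 and at 66.2, 73.7 and 66.1 CPM on day 21. Each day-21 mouse was above each day-0 mouse, but the difference was small, with a log2 fold change of 0.39 (SE 0.10, interval 0.16 to 0.62). Its edgeR adjusted p was 0.010 and its fold of 1.31 was under the 1.5 required of a call. With scaling by total counts alone it was called, at 0.78. Its T-cell relative Skap1 went from 1.03 ± 0.115 to 5.02 ± 0.562 CPM (log2 fold change 2.27, edgeR adjusted p = 1.6e-04), and per length it stayed far under Skap2, at 0.673 against 6.05 RPKM on day 21.

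Vav1 was at 2.80, 2.80 and 3.81 CPM on day 0 and at 12.1, 16.9 and 11.8 CPM on day 21, a log2 fold change of 2.12 (SE 0.24, interval 1.59 to 2.65, edgeR adjusted p = 5.7e-05). The second day-21 mouse was the highest, and no day-21 mouse came near the day-0 range. Its relatives Vav2 and Vav3, which act in many tissues, were not called (log2 fold changes 0.02 and 0.55, edgeR adjusted p = 0.927 and 0.0219, Vav3 falling short of the fold). The log2 ratio of Vav1 to Vav2 was higher by 2.09 on day 21, and that of Vav1 to Vav3 by 1.52.

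Apbb1ip, for RIAM, was at 2.50, 2.39 and 1.44 CPM on day 0 and at 9.53, 11.5 and 10.9 CPM on day 21. The groups were fully apart, and the log2 fold change was 2.32 (SE 0.25, interval 1.76 to 2.89, edgeR adjusted p = 5.0e-05). The 6 ratios between relatives given for kindlins, talins, Vav and Skap genes were chosen after their values were seen, and each had the smallest exact permutation p of 0.1 (also 0.1 adjusted over the 6). The sixth, Skap1 to Skap2, was 1.84 higher on day 21.

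**Figure D4:**
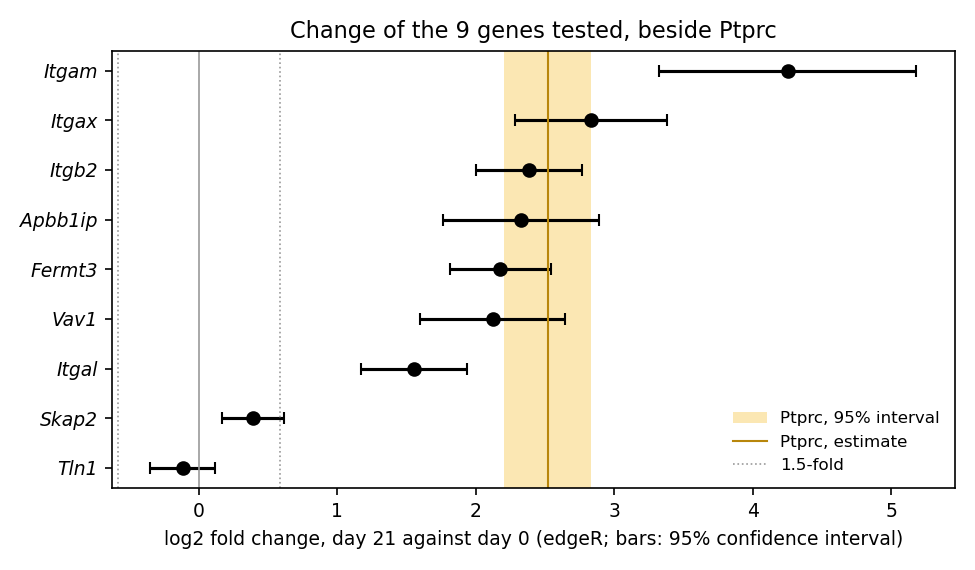
Log2 fold change of day 21 against day 0 for the 9 members tested, with bars for the 95% confidence interval, beside the estimate and interval of Ptprc (yellow) and dotted lines at 1.5-fold. The intervals of Itgb2, Itgax, Apbb1ip, Fermt3 and Vav1 cross that of Ptprc, Itgam lies above it, and Itgal, Skap2 and Tln1 lie below it.

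Each member was also read against Ptprc within the same mouse, which places it beside the leukocyte signal of the tissue without any scaling of libraries. The Itgb2 to Ptprc ratio on the log2 scale was -0.72, 0.18 and -0.81 on day 0 and -0.62, -0.48 and -0.58 on day 21. The groups overlapped, and the refit with libraries scaled to Ptprc gave a difference of -0.17 (interval -0.72 to 0.38, edgeR adjusted p = 0.522). In the same refit Fermt3 differed by -0.37 (adjusted p = 0.170), Vav1 by -0.39 (adjusted p = 0.200), Apbb1ip by -0.21 (adjusted p = 0.539) and Itgax by 0.29 (adjusted p = 0.368), and the groups of each overlapped in its ratio. These p-values do not show that the members moved exactly with Ptprc.

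In 4 members the groups did not overlap in the ratio to Ptprc, upward in Itgam and downward in Itgal, Tln1 and Skap2. The share of all genes without overlap in this ratio was not computed. In the refit scaled to Ptprc 92.0% of all genes were lower at an adjusted p under 0.05, so a lower ratio is not particular to these members. The log2 ratio differed by 2.00 for Itgam and by -0.98 for Itgal, each with an exact permutation p of 0.1 (0.225 adjusted over the 9 members). In the refit, Itgam was higher by 1.72 on the log2 scale (interval 0.64 to 2.80, edgeR adjusted p = 0.0046), where 1.51% of all genes were higher. Without the first day-0 mouse this was 1.21 (adjusted p = 0.016), and without the second day-0 mouse, the 1 with 10 Itgam counts, it was 2.58. For Itgal the refit gave -0.98 (interval -1.49 to -0.47, edgeR adjusted p = 0.0012), where 92.0% of all genes were lower. Here too the adjustment altered little, with unadjusted edgeR p of 0.0041 for Itgam and 9.9e-04 for Itgal with all mice. Tln1 and Skap2 were at -2.65 and -2.14 in the refit. On day 0 the Tln1 count was above that of Ptprc by 4.79 ± 0.24 on the log2 scale and on day 21 by 2.16 ± 0.08. Against the summed count of 8 macrophage markers, the differences in log2 ratio were 2.07 for Itgam, -0.04 for Itgb2, -0.91 for Itgal and -2.56 for Tln1, where the same measure against Ptprc gave 2.00, -0.11, -0.98 and -2.63. For Fermt3 they were -0.27 against the macrophage markers, with every day-21 mouse below every day-0 mouse, and -0.34 against Ptprc, with overlap.

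**Figure D5:**
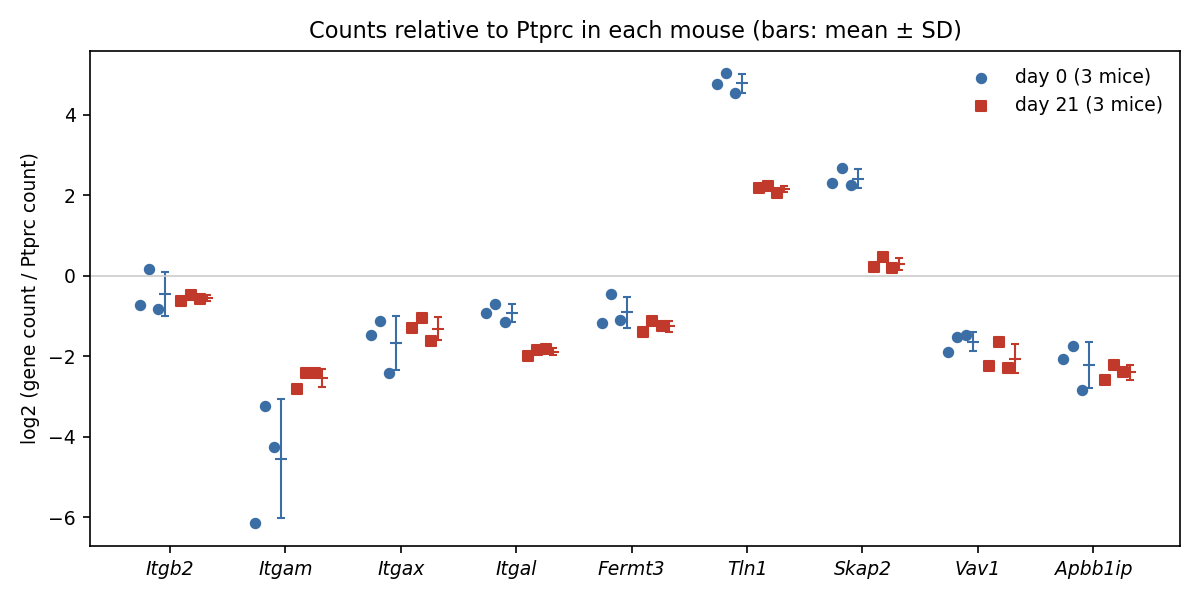
Log2 ratio of each member's count to the Ptprc count in each mouse, with circles for day 0, squares for day 21 and bars for the mean and SD. The groups part upward in Itgam and downward in Itgal, Tln1 and Skap2, and overlap in the other 5 members.

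Macrophage and T-cell markers moved with these genes, and their part in the members' changes was not tested. All 8 macrophage markers rose, where 19.6% of all genes tested rose. Their summed level was 179 to 231 CPM on day 0 and 929 to 1253 CPM on day 21. Their median log2 fold change was 2.97. Lyz2, for lysozyme, rose the most of them (log2 fold change 3.31). All 7 T-cell markers rose, beside the same 19.6%, from a summed 4.61 to 11.6 CPM on day 0 to 31.99 to 36.5 CPM on day 21. The kinase gene Lck (2.64) led them. Of 6 dendritic cell markers 1, the chemokine receptor gene Ccr7, rose, where 19.6% of all genes tested rose.

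Neutrophils carry much CD11b, and their part in the change of Itgam was not tested. Of 8 neutrophil markers 4 could be tested, and 1 rose and 2 fell, where 19.6% of all genes tested rose and 15.5% fell. S100a8 and S100a9, which encode calprotectin, fell (log2 fold changes -1.97 and -1.99), Csf3r rose by 1.19 and Cxcr2 was not called. The summed level was 15.4 to 26.9 CPM on day 0 and 11.1 to 11.9 CPM on day 21. Of the defining markers, Mpo was at 0 counts in all mice, Ngp and Camp were at 0 in the day-21 mice, and Ly6g had at most 4 counts in a mouse. B-cell and NK-cell markers gave 1 testable gene of 5 each and 0 calls, and of 3 testable platelet markers of 6, Pf4 rose.

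Of 20 partners in inside-out signalling 8 rose, 1 fell and 11 were not called, with a median log2 fold change of 0.43. Over all genes tested, 19.6% rose and 15.5% fell. Those that rose include the adaptor genes of leukocyte receptor signalling, led by Fyb, which encodes ADAP, the partner of the Skap proteins (4.61 ± 1.34 to 22.6 ± 1.15 CPM, log2 fold change 2.29), with Lcp2, for SLP-76, at 2.28. Rassf5, for the Rap1 effector RAPL, rose by 1.49, and the leukocyte PI3-kinase genes Pik3cd and Pik3cg rose by 1.81 and 1.78. The GTPase itself gave another picture. Rap1a and Rap1b, found in all cells, had log2 fold changes of 0.00 and 0.32 and were not called (edgeR adjusted p = 0.987 and 0.0425), and the Rap1 exchange factor gene Rasgrp2 was at -0.64 (adjusted p = 0.0572). The gene that fell was Tln2.

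Of 7 genes that restrain integrins or Rap1, 3 rose and 1 fell, where 19.6% of all genes tested rose and 15.5% fell. Dok1, whose product competes with talin for the beta tail, rose from 2.94 to 10.8 CPM (log2 fold change 1.86), and Flna, for filamin A, which binds the same tail, rose from 153 to 351 CPM. Sipa1, which encodes a Rap1 GTPase-activating protein, rose by 0.82, while Rap1gap, for another, fell by 0.89 on the log2 scale. Of 14 genes of outside-in signalling, which act once the integrin is bound, 10 rose and 0 fell, beside the same 19.6% and 15.5%. Their median was 1.89. The rise was led by Tyrobp, for the adaptor DAP12 (2.74), and included the kinase genes Syk (1.40) and Lyn (1.02). Those not called were Src, Ptk2, Ptk2b and Pxn.

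Ligands of these receptors were listed as well. Of 11 ligand genes tested of 13, 7 rose and 0 fell, where 19.6% of all genes tested rose and 15.5% fell. Their median log2 fold change was 2.06. Icam1, the main ligand of LFA-1 and Mac-1 on endothelium and epithelium, was at 40.7, 24.4 and 20.4 CPM on day 0 and at 96.1, 91.8 and 90.7 CPM on day 21 (log2 fold change 1.71, SE 0.21, edgeR adjusted p = 1.2e-04). Icam2, the ICAM of resting endothelium, overlapped between the groups (log2 fold change -0.27, adjusted p = 0.398). C3, whose product is the precursor of the iC3b bound by Mac-1, was at 40.8, 25.5 and 26.5 CPM on day 0 and at 1769, 1963 and 1530 CPM on day 21, a log2 fold change of 5.83. The fibrinogen genes Fga, Fgb and Fgg rose by 2.06, 3.58 and 3.54, and spread widely between mice, Fgb lying between 1.23 and 14.5 CPM on day 0.

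Among 9 other integrin chains of leukocytes and platelets 4 rose and 0 fell, with a median of 0.65. The shares over all genes tested were 19.6% and 15.5%. Itga4, for the alpha chain of VLA-4, had the largest change, from 4.48 to 12.7 CPM. Itgb1, the broadly expressed beta chain, rose by 0.65.

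By the Euclidean distance between log2 CPM values centred on each gene's mean over the 6 mice, the 5 genes nearest to Itgb2 among 12445 candidates with a mean of at least 5 CPM were Gm20496 (0.254), H2-Ab1 (0.275), an MHC class II gene, Laptm5 (0.279), Fgd2 (0.290) and Fcer1g (0.303), a signalling subunit of Fc receptors. Of the members, Fermt3 was nearest to Itgb2 at 0.400, then Apbb1ip at 0.552, Itgax at 0.769, Vav1 at 0.912, Itgal at 1.18, Itgam at 1.498, Skap2 at 2.43 and Tln1 at 3.04. This is a description over 6 mice that differ mainly by day, with all values sharing their libraries.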

How the data were processed

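Total RNA of mouse kidney was extracted and its mRNA sequenced for the authors, who deposited raw counts per gene for 6 mice without normalization. The submitters' processing notes name TopHat and mm10, and the counting program and its strand setting are not given in the sources used here. Identifiers are those of GENCODE M21. Groups came from the sample labels, and 0 columns of the table were left out.

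Genes were filtered with filterByExpr (minimum count 10, minimum total 15), scaled by TMM and compared with edgeR 4.0.16's quasi-likelihood test in R 4.3.3 without a replicate block, with Benjamini-Hochberg adjustment over all genes tested, and calls required both an adjusted p below 0.05 and more than a 1.5-fold difference. Ratios used counts plus 0.5. DESeq2 1.42.0, limma 3.58.1 (voom), other scalings, filters and each mouse left out were alternatives. The refits scaled to Itgb2 and Ptprc, and the ratios between relatives, were added after seeing the data. The comparison of day 21 with day 0 by edgeR, limma-voom and DESeq2 was tested on simulated counts, in which far fewer genes changed than were called here. The refits scaled to a gene, the ratios and the alpha chain shares were not tested in that way. Figures were made in Python 3.11.15.

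The members and lists were chosen with earlier results of these data known. Named are all members, known partners of the members and the 5 genes most like Itgb2. The largest rise and fall called in each list are also named, except for the kidney epithelium and endothelium lists. Of 4 endothelium markers, 0 were higher and 1 lower. The other genes named were chosen after their values were seen. Nothing beyond the labels says how mice were allotted to libraries. At total counts of 10963849 to 14333311 per mouse, Itgam lay near the floor on day 0, and the reason was not tested.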

Additional observations from a re-analysis of the deposited data

How the results depend on the processing

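Under 16 alternatives the number of members called higher was 7 in 15 and 8 with scaling by library size alone, where Skap2 was called at a log2 fold change of 0.78. The number called lower was 0 in all 16, by edgeR, DESeq2 and limma-voom alike, and the only negative change, that of Tln1, had an unadjusted edgeR p of 0.294. Of 135 recomputed log2 fold changes of members, 1 turned: Tln1 was at 0.27 with library size scaling. That scaling moved the median of all genes from 0.03 to 0.42, and the share of calls that were higher from 55.8% to 81.7%. With a replicate block, 7 members were called higher and 5758 genes were called in place of 5822. The labels do not say that equal replicate numbers share an animal, batch or day, so a paired reading was not used. The deviations of same-numbered mice from their group means correlated at -0.03, 0.17 and 0.10, and those of differently numbered mice at -0.19 to 0.13. With 3 mice per group these correlations cannot tell whether same-numbered mice share a batch.

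With unshared exon bases in place of all exon bases, the Itgam share of the alpha chains went from 6.26% to 16.9% on day 0 and from 21.5% to 46.5% on day 21. Leaving out each mouse gave 4.63% to 8.81% and 19.7% to 22.9%. The 1 to 10 Itgam counts of the day-0 mice limit the precision of every Itgam fold and ratio.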
